A study of Mus musculus with 2 samples.

Results

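The cytochrome P450 genes Cyp4a12a and Cyp4a12b and the endothelin receptor gene Ednrb are 3 of the 26124 genes in the count matrices of GM-CSF bone marrow cultures. They were chosen from these data because they were near absent in the control cultures and high in the heme cultures, so their levels are given here as a description with no test. The study asked how heme changes the differentiation of mouse bone marrow cells grown with GM-CSF. Lineage-depleted marrow of C57BL/6 mice aged 8 to 10 weeks was cultured with 20 ng/ml GM-CSF, and on day 3 either heme-albumin at 300 µM (heme) or albumin without heme (vehicle control) was added. Cells of culture days 0, 3, 4, 5 and 7 were tagged with hashtag antibodies, pooled within each treatment and sequenced as 1 droplet library per group. Each group is therefore 1 library that holds 5 hashtagged cultures, no culture was repeated, and days 0 and 3 stand for cells that had not yet been cultured with heme in either library. The sources do not say how many mice gave the marrow.

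CYP4A enzymes are heme-containing monooxygenases of the endoplasmic reticulum that hydroxylate fatty acids at the omega end. The mouse CYP4A12 enzymes are best known from male kidney and from liver, where they turn arachidonic acid into 20-HETE, a lipid that acts on vascular tone. Ednrb encodes the endothelin B receptor, a G protein-coupled receptor for all endothelin peptides that is known from endothelium, neural crest cells and their melanocyte and enteric neuron descendants, and that also clears endothelin 1 from the circulation.

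In the GENCODE M21 annotation of mouse build GRCm38, Cyp4a12a lies on the plus strand at chr4:115299046-115332815 and Cyp4a12b on the same strand at chr4:115411624-115439034, with 78808 bases between them. Each has 1 annotated transcript of 12 exons, and Cyp4a12b overlaps the processed pseudogene Gm12837 on the opposite strand, which is not a row of the matrices. Ednrb lies on the minus strand at chr14:103814625-103844402 and has 3 annotated transcripts. The Cyp4a12 transcripts, of 2422 and 2395 bases, were identical at 2355 of 2393 aligned bases (98.4%), and their coding sequences of 1524 bases each differed at 20 positions. Only reads over positions that differ can tell the copies apart. The stretch of coding sequence from base 435 to base 554 held 5 of these differences and is shown as an example with many of them. In the Cyp4a12a transcript it covers bases 517 to 636, far from the 3′ end. Both lines run 5′ to 3′ as in the GENCODE transcripts, and capitals mark the bases that differ.

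Cyp4a12a: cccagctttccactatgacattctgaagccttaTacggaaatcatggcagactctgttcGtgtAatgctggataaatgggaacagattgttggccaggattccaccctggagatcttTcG

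Cyp4a12b: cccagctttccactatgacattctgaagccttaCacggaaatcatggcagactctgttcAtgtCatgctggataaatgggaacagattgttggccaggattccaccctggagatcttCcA

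The sequenced cDNA read was 91 bases long. Of the 2332 windows of that length in Cyp4a12a, 877 (37.6%) held no base that differs from Cyp4a12b, and in the last 500 bases of the transcript, where a 3′ library has most of its reads, this was so for 123 of 410 windows (30%). A read from such a window matches both copies equally well, so the counts of each copy, and the split between them, are uncertain to that extent.

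The libraries held 13961 control and 17378 heme barcodes, of which 9684 and 9941 were kept as cells with 1 hashtag and within the filters. The kept cells numbered 598 to 2715 per culture, with 6189203 to 34647365 UMIs (unique molecular identifiers, each standing for 1 captured transcript) and a median of 7912 to 15078 UMIs per cell. The upper limit of 5000 genes per cell removed 1.92% to 8.34% of the control singlets but 16.4% to 33.9% of the heme singlets. The share removed was higher in heme on days 0 and 3 too. The members' levels and ratios after heme, their day 0 percents and some day 7 values were also computed without it. Of these, the levels that moved past their counting interval are given below. Other results, among them the copy split, the carrier comparisons, the gene lists and the background shares, were computed with the limit only. The libraries shared 112 barcodes, 33 of them kept in both. Macrophage markers (Marco, Mrc1, Adgre1, Mertk, Cd163, C1qa, Vcam1, Timd4) summed to 1028 CPM (UMIs of a gene per 1000000 UMIs) on heme day 7 and 207 CPM on control day 7. Most of this gap was Marco (522 against 3.64 CPM) and Mrc1 (275 against 60.6 CPM). Without them the sums were 232 and 143 CPM. Adgre1 and Mertk were higher in heme, while C1qa was lower at 1.22 against 61.8 CPM. Cd163 (0.223 against 0.317 CPM) and Vcam1 (1.11 against 1.15 CPM) were not higher, and Timd4 was at 0 in all cultures. The dendritic cell list summed to 246 and 6241 CPM. Markers of hepatocytes summed to at most 0.323 CPM, those of kidney proximal tubule to at most 2.91 CPM and those of melanocytes and neural crest to at most 3.64 CPM in any culture. Alb, Kap and Sox10 were at 0 in all 10 cultures.

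Cyp4a12a had 0, 0, 4, 0 and 3 UMIs in the control cultures of days 0, 3, 4, 5 and 7, and 25, 55, 163, 514 and 2072 UMIs in the heme cultures of the same days. In CPM this was 1.90, 1.67, 5.94, 26.5 and 76.9 in the heme cultures, against at most 0.154 in any control culture. No control culture reached the lowest heme culture, and the heme cultures of days 0 and 3 had the lowest heme levels, with 95% Poisson intervals that overlapped. The heme to control ratio was 38.7 on day 4 (95% interval 14.8 to 144) and 888 on day 7 (303 to 4309). On day 5 the control had 0 UMIs, and against a floor of 3 counts in that culture the ratio was 230. The lower limit of the 95% interval for day 5, from the 0 count itself, was 186. These intervals, like all others here, cover counting error only and not the spread between cultures. Those of UMI counts take the UMIs as independent, and are too narrow where a few cells hold many of them.

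Cyp4a12b had no UMI in the control cultures of days 0, 3, 4 and 5 and 3 UMIs on day 7. The heme cultures had 3, 21, 57, 137 and 546 UMIs, or 0.227, 0.639, 2.08, 7.07 and 20.3 CPM. From day 3 every heme culture was above every control culture, while on day 0 its 3 UMIs were no more than the floor and no ratio is given. On day 4 the heme level was at least 18.0-fold and on day 5 at least 61.2-fold higher, and the day 7 ratio was 234 (79.6 to 1138).

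Ednrb had 3, 4, 2, 2 and 2 UMIs in the control cultures and 11, 13, 92, 92 and 623 UMIs in the heme cultures. This was 0.485, 0.136, 0.0768, 0.0770 and 0.0577 CPM in the control and 0.834, 0.396, 3.35, 4.74 and 23.1 CPM in the heme cultures. The ranges overlapped before heme, since control day 0 lay above heme day 3, and they were apart on days 4, 5 and 7. The day 0 ratio of 1.72 (0.454 to 9.60) and the day 3 ratio of 2.91 (0.899 to 12.2) had intervals that include 1. After heme the ratio was 43.7 (11.8 to 366) in the day 4 pair, 61.6 (16.6 to 517) in the day 5 pair and 400 (110 to 3314) in the day 7 pair.

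**Figure D1:**
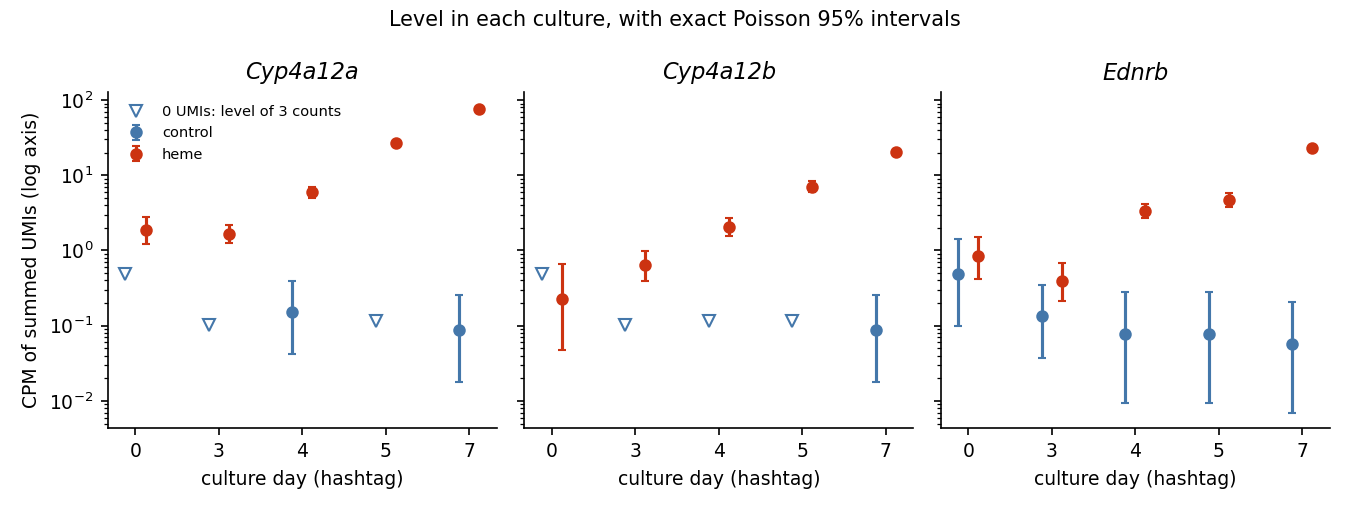
CPM of Cyp4a12a, Cyp4a12b and Ednrb on a log axis in the control (blue) and heme (red) culture of each hashtag day, with the days evenly spaced. Bars are exact Poisson 95% intervals and open triangles mark cultures with 0 UMIs at the level of 3 counts. The heme cultures of day 7 reach 76.9, 20.3 and 23.1 CPM and every control culture stays below 0.5 CPM.

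The members differed in their course within the heme library. Cyp4a12a was 3.55 times higher on day 4 than on day 3 (2.60 to 4.91), 4.46 times higher on day 5 than on day 4 (3.74 to 5.36) and 2.90 times higher on day 7 than on day 5 (2.63 to 3.2). Cyp4a12b followed with 3.25, 3.4 and 2.87 over the same steps. Ednrb was 8.47 times higher on day 4 than on day 3 (4.72 to 16.5), 1.42 times higher on day 5 than on day 4 (1.05 to 1.91) and 4.87 times higher on day 7 than on day 5 (3.91 to 6.13). Its 92 UMIs on day 4 lay in 37 cells and its 92 on day 5 in 36, so the interval of that step is too narrow. The shares of cells with a UMI, 1.49% (1.05% to 2.05%) and 1.89% (1.32% to 2.60%), had overlapping intervals. Without the 5000-gene limit the day 4 levels were 9.71 CPM for Cyp4a12a and 5.73 CPM for Ednrb, over 1.5 times the values above. Ednrb was then at 5.49 CPM on day 5, so its rise from day 4 to day 5 was not seen without the limit. A mean over cells that gives each cell the same weight moved Ednrb on day 4 to 2.05 CPM and Cyp4a12b on day 5 to 4.58 CPM.

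As background, 14.9% of 12867 genes with at least 20 UMIs in both day 7 cultures together were at least 2-fold higher in heme (log2 ratio of 1 or more) and 7.67% at least 2-fold lower. The shares higher and lower were 20.7% and 1.75% in the day 0 cultures, 7.95% and 0.539% in those of day 3, 9.64% and 2.98% in those of day 4 and 9.27% and 3.75% in those of day 5. The kept cells of the libraries thus differed before heme as well. On day 0, however, the filters kept 598 of 1716 control singlets and 1366 of 1877 heme singlets. The day 0 shares therefore compare differently filtered cells, and the part of the filters in them was not tested. The members were chosen on this contrast, and nothing is read from their place in it. By day 7 ratio they stood at places 9 (Cyp4a12a), 14 (Cyp4a12b) and 11 (Ednrb) of the 12867 genes.

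A pattern of under 0.5 CPM in every control culture and at least 20 CPM on heme day 7 was met by 4 of the 26124 genes, the 3 members and Gsta3, a glutathione S-transferase, at 0.317 CPM at most in the control and 30.4 CPM on heme day 7. Ednrb lay just inside the first limit at 0.485 CPM and Cyp4a12b just inside the second at 20.3 CPM. Just outside were Cd276, an immune checkpoint ligand of the B7 family, at 0.491 and 19.8 CPM, and Akr1b8, an aldo-keto reductase, at 0.866 and 27.2 CPM. With the limits at 1 and 10 CPM, 8 genes met them.

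The other Cyp4 genes around the copies were not counted above traces. Of 16 Cyp4 genes and pseudogenes within 300000 bases of the copies, 10 are in the matrices, and over all kept cells Cyp4a12a had 2829 heme and 7 control UMIs and Cyp4a12b 764 and 3. Cyp4a14 had 2 and 0, Cyp4x1 3 and 4 and Cyp4b1 0 and 2, and Cyp4a10, Cyp4a29, Cyp4a30b, Cyp4a31 and Cyp4a32 had none in either library. Elsewhere in the genome Cyp4v3, a fatty acid omega-hydroxylase, was at 27.8 CPM on heme day 7 and 8.66 CPM on control day 7 (log2 ratio 1.68), and Cyp4f18, which acts on leukotriene B4, at 22.6 and 29.8 CPM (log2 ratio -0.40). Of the 21 genes whose symbol begins with Cyp4 (among them Cyp46a1 of another family), 7 had enough UMIs on day 7, 3 were at least 2-fold higher and none at least 2-fold lower. Over all genes, 14.9% were at least 2-fold higher and 7.67% lower on day 7. The median log2 ratio of the measured Cyp4 genes was 0.10, or -0.03 without the members, beside 0.28 over all genes.

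The profiles most like each member over the 10 cultures were compared by Pearson's r of log2(CPM + 1) over 9641 genes. For Cyp4a12a they were Slc30a1, a zinc exporter (r = 0.986), Cyp4a12b (0.986), Spic, the transcription factor of red pulp macrophages (0.978), Gsta3 (0.973) and Akr1b8 (0.972). Those of Cyp4a12b were Cyp4a12a, Gsta3 (0.984), Akr1b8 (0.981), Ednrb (0.975) and Me1, the cytosolic malic enzyme that makes NADPH (0.973), and those of Ednrb were Gsta3 (0.985), Cyp4a12b, Spic (0.974), Emp1, an epithelial membrane protein (0.971), and Cyp4a12a (0.968). The cultures share libraries and depth, and with a pseudocount of 10 only 2 of the 5 genes of each member were among the 5 again.

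Detection in single cells followed the levels. Cyp4a12a had at least 1 UMI in 1.83%, 2.53%, 4.92%, 14.3% and 44.7% of kept heme cells on days 0, 3, 4, 5 and 7, Cyp4a12b in 0.220%, 0.920%, 1.73%, 4.61% and 17.5%, and Ednrb in 0.805%, 0.598%, 1.49%, 1.89% and 11.4%. After cells were thinned to 5000 UMIs each, with shallower cells left out, the day 7 shares were 26.9% (24.8% to 29.0%) of 1764 cells for Cyp4a12a, 8.67% (7.40% to 10.1%) for Cyp4a12b and 6.35% (5.26% to 7.59%) for Ednrb. The same thinned shares on day 0, before heme, were 1.22%, 0.101% and 0.405% of 987 cells, and the day 7 shares lay above them for all 3 genes.

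The amount per cell with a UMI differed in its course as well. For Cyp4a12a it went with the culture day, at 1.34, 1.89 and 2.30 UMIs on days 4, 5 and 7, with up to 13 UMIs in 1 cell. For Ednrb it was 2.49, 2.56 and 2.72 UMIs, so on day 4 its 92 UMIs lay in only 37 of 2481 cells, the fullest with 14. In the control cultures no cell had more than 1 UMI of any member, and the UMIs lay in 7, 3 and 13 barcodes for Cyp4a12a, Cyp4a12b and Ednrb. None of these barcodes was among those of the heme library.

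The day 0 cells of the heme library came to the pool without exposure, and their member UMIs were compared with other heme-associated genes, since RNA free in a droplet library from 1 source would keep its genes in 1 ratio. Cyp4a12a on day 0 was at 5.09% (3.29% to 7.53%) of its level over heme days 4, 5 and 7, Cyp4a12b at 2.27% (0.467% to 6.65%) and Ednrb at 7.63% (3.79% to 13.7%). Marco, a macrophage scavenger receptor, was at 4.07% (3.33% to 4.92%), Spic at 4.18%, Hmox1, heme oxygenase 1, at 4.40% and the mannose receptor gene Mrc1 at 4.46%. All 25, 3 and 11 cells with Cyp4a12a, Cyp4a12b or Ednrb on day 0 had exactly 1 UMI. Against days 4, 5 and 7 together, the members' intervals covered the shares of Marco, Spic, Hmox1 and Mrc1. Against day 7 alone, Cyp4a12a was at 2.47% (1.59% to 3.65%) and Ednrb at 3.61% (1.79% to 6.5%), and these intervals no longer covered Marco at 1.55% (1.27% to 1.88%). They still covered Spic at 2.04%, Mrc1 at 2.15% and Hmox1 at 2.56%. Cyp4a12b, at 1.12% (0.231% to 3.30%), covered Marco as well. The interval of Hmox1 (2.44% to 2.69%) itself lay above that of Marco. The iron exporter Slc40a1 stood apart at 16.0% (14.7% to 17.4%), and it was also present in the control library on day 0, at 34.4 CPM. On day 3 the members were at 4.49%, 6.37% and 3.62% of the exposed level, with at most 2 UMIs in a cell. Marco was at 4.15%, with up to 11 UMIs in a cell, Spic at 4.73% and Hmox1 at 5.31%, while Slc40a1 was at 28.4% and Mrc1 at 77.7%, so the genes were not in 1 ratio on day 3. Whether the day 0 and day 3 UMIs came from free RNA was not tested.

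**Figure D2:**
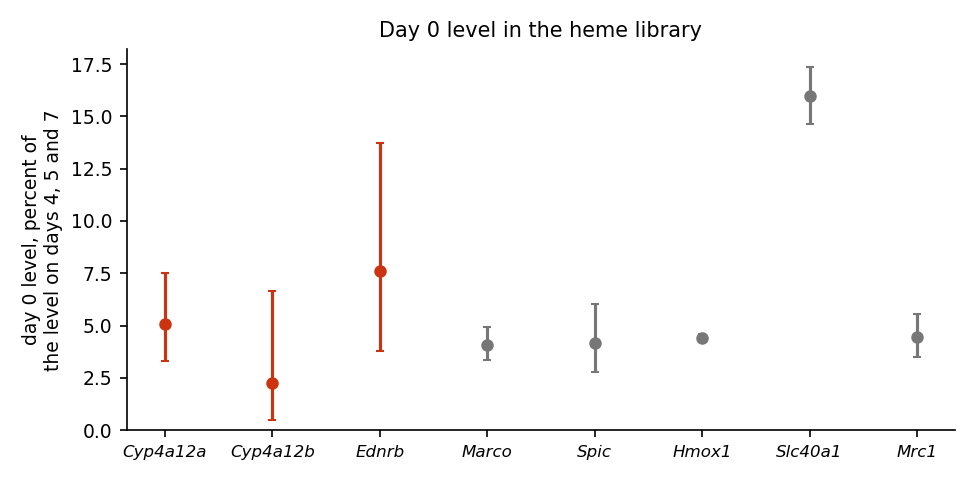
Level on day 0 of the heme library as a percent of the level over heme days 4, 5 and 7 together, for the members (red) and other heme-associated genes (grey), with 95% intervals of the ratio of 2 counts. The members lie at 5.09%, 2.27% and 7.63%, around the 4.07% to 4.46% of Marco, Spic, Hmox1 and Mrc1, with Slc40a1 at 16.0%.

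Heme cells of days 4, 5 and 7 were then divided by status, with at least 2 UMIs counted as carrying Marco or Mrc1, and the cells with neither split at an S100a8 level of 10000 CPM into S100a8-high, the level of neutrophil lineage cells, and S100a8-low. On day 7, Marco+Mrc1 cells (693 of 2012, 34.4%) held 53.4% of the Cyp4a12a UMIs, 55.5% of the Cyp4a12b UMIs and 76.2% of the Ednrb UMIs. In these cells the levels were 94.2 CPM for Cyp4a12a (88.7 to 99.9), 25.8 CPM for Cyp4a12b (23.0 to 28.9) and 40.4 CPM for Ednrb (36.9 to 44.2). The macrophage markers other than Marco and Mrc1, which define the groups, summed to 292 CPM in these cells and 75.1 CPM in the S100a8-high cells. The sums were 299 CPM in cells with Marco only, 222 CPM with Mrc1 only and 207 CPM in the S100a8-low cells. The 315 cells with Mrc1 but not Marco were alike for the P450 genes, at 98.0 and 26.4 CPM, but Ednrb was at 15.4 CPM. The ratio of Marco+Mrc1 to Mrc1-only cells was 0.961 (0.864 to 1.07) for Cyp4a12a, 0.975 (0.794 to 1.20) for Cyp4a12b and 2.63 (2.07 to 3.38) for Ednrb.

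The cells without either receptor divided the members further. In S100a8-low cells of day 7 (465 cells), Cyp4a12a was at 59.5 CPM, Cyp4a12b at 14.7 CPM and Ednrb at 8.93 CPM. In S100a8-high cells (449 cells) the levels were 21.4 CPM (17.1 to 26.5), 4.33 CPM (2.52 to 6.93) and 1.27 CPM (0.413 to 2.97). Marco+Mrc1 cells were thus 4.40 times above S100a8-high cells for Cyp4a12a (3.53 to 5.57), 5.96 times for Cyp4a12b (3.66 to 10.4) and 31.8 times for Ednrb (13.5 to 98.3), and the intervals of Cyp4a12a and Ednrb did not overlap.

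**Figure D3:**
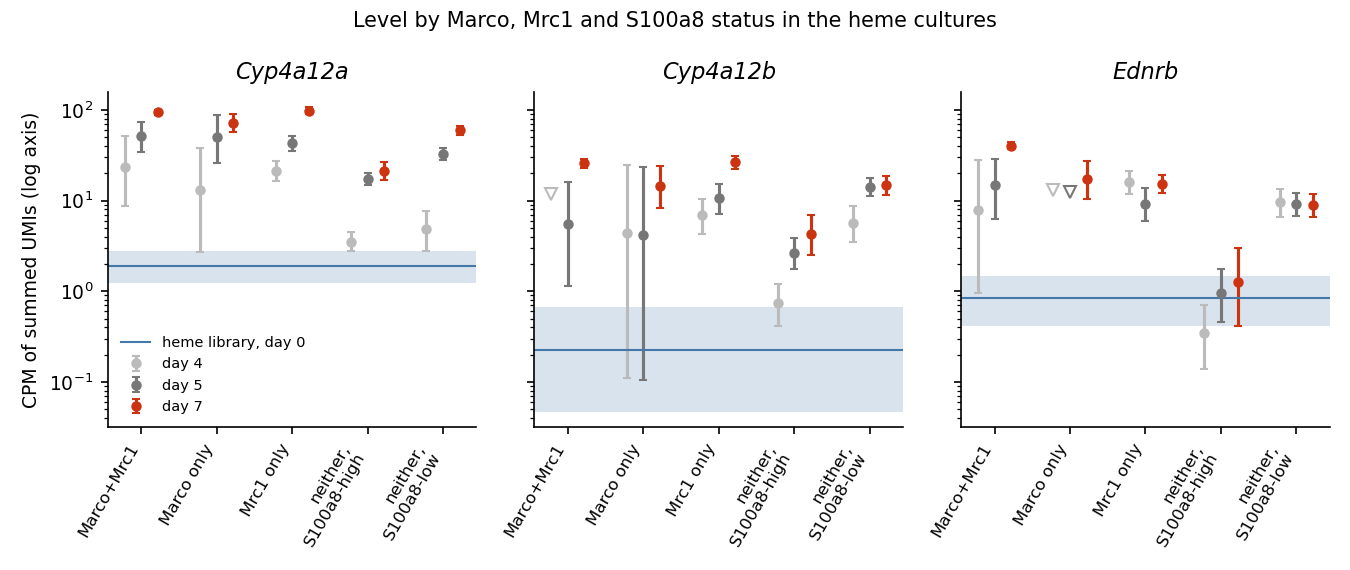
CPM on a log axis by status group in the heme cultures of days 4 (light grey), 5 (dark grey) and 7 (red), with exact Poisson 95% intervals. Open triangles mark groups with 0 UMIs at the level of 3 counts, and the blue line and band give heme day 0 with its interval. Ednrb in S100a8-high cells lies at or below the day 0 band on days 4, 5 and 7 (0.344, 0.946 and 1.27 CPM), while Cyp4a12a there reaches 17.4 and 21.4 CPM on days 5 and 7.

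Before day 7 few cells carried Marco, and the members were counted mostly in other cells. On day 4 only 15 cells were Marco+Mrc1, and the 178 Mrc1-only cells (7.17% of 2481) held 39.9%, 36.8% and 53.3% of the Cyp4a12a, Cyp4a12b and Ednrb UMIs, at 21.2, 6.85 and 16.0 CPM. The 231 S100a8-low cells without either receptor had 4.82 CPM of Cyp4a12a but 9.64 CPM of Ednrb, and the latter came from 34 UMIs with up to 12 in 1 cell. On day 5, Mrc1-only cells (146 cells) were at 42.8, 10.7 and 9.21 CPM and S100a8-low cells without either receptor (326 cells) at 32.7, 14.3 and 9.22 CPM. Ednrb in the Mrc1-only cells was thus at 16.0, 9.21 and 15.4 CPM on days 4, 5 and 7, with no steady course, while Cyp4a12a in the same group was at 21.2, 42.8 and 98.0 CPM.

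In S100a8-high cells without Marco or Mrc1, Cyp4a12a was above its day 0 level, while a difference from day 0 was not detectable for Ednrb at this depth. Cyp4a12a there was at 3.53, 17.4 and 21.4 CPM on days 4, 5 and 7, or 1.87 (1.17 to 3.07), 9.18 (6.03 to 14.6) and 11.3 (7.14 to 18.4) times its day 0 level in the library. Ednrb was 0.412 (0.135 to 1.16), 1.13 (0.432 to 2.94) and 1.53 (0.416 to 4.76) times its day 0 level. Spic in the same cells was at 3.58, 5.30 and 5.34 CPM, against 94.0 to 160 CPM in Marco+Mrc1 cells of the same days. Marco was at 6.38, 6.71 and 8.65 CPM, but the definition caps it at 1 UMI per cell, and in all S100a8-high cells whatever their receptors it was at 7.94, 8.64 and 32.0 CPM. Hmox1 was at 746, 1465 and 1146 CPM, beside 133 CPM on day 0. With that limit at 30000 CPM, Cyp4a12a in the S100a8-high cells of day 7 was at 14.6 CPM.

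In S100a8 and in Camp, Ltf and Ly6g, named after their values were seen, the S100a8-high cells with a Cyp4a12a UMI differed from those without. They numbered 58, 106 and 54 on days 4, 5 and 7, with up to 6, 7 and 6 UMIs in a cell, and were deeper, with a median of 8803 UMIs against 7038 on day 7. On day 7 they had 414 CPM of Camp, the cathelicidin precursor of secondary granules, against 5025 CPM in those without. The same comparison gave 2061 against 5829 CPM for Ltf (lactoferrin), 28.9 against 157 CPM for Ly6g and 61460 against 82702 CPM for S100a8. Camp was also lower in the cells with a UMI on day 5, at 546 against 1696 CPM, and on day 4, at 7097 against 9924 CPM. The neutrophil list (S100a8, S100a9, Ly6g, Camp, Ltf, Mmp8, Retnlg, Csf3r) summed to 116033 against 162775 CPM on day 7, the macrophage list to 152 against 78.3 CPM and the erythroid list to 1046 against 130 CPM. Doublets of 2 cells with the same hashtag were not removed, and the part of depth and of such doublets in these differences was not tested.

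The split of UMIs between the copies was much alike over the cultures, with Cyp4a12a taking 74.1% (67.8% to 79.7%), 79.0% (75.6% to 82.0%) and 79.1% (77.5% to 80.7%) of the UMIs of both in the heme cultures of days 4, 5 and 7. UMIs from 3′ ends do not scale with transcript length, and the transcripts are near the same length. Within days it differed between status groups before day 7. In S100a8-low cells without either receptor it was 45.9% (29.5% to 63.1%; 17 of 37 UMIs), 69.6% (63.5% to 75.2%) and 80.2% (75.8% to 84.1%) over days 4, 5 and 7. Other markers of this group moved over the same days, with the dendritic cell list at 5353, 4302 and 1028 CPM and the basophil or mast cell list at 523, 284 and 126 CPM, and their part in the split was not tested. In S100a8-high cells it was 82.8% (73.2% to 90.0%), 86.8% (81.5% to 91%) and 83.2% (74.4% to 89.9%). The intervals of these groups were apart on days 4 and 5 and overlapped on day 7. Mrc1-only cells were at 75.6%, 80.0% and 78.8%. Reads that match both copies cannot be assigned by sequence, and how the counting treated them for these genes was not tested.

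**Figure D4:**
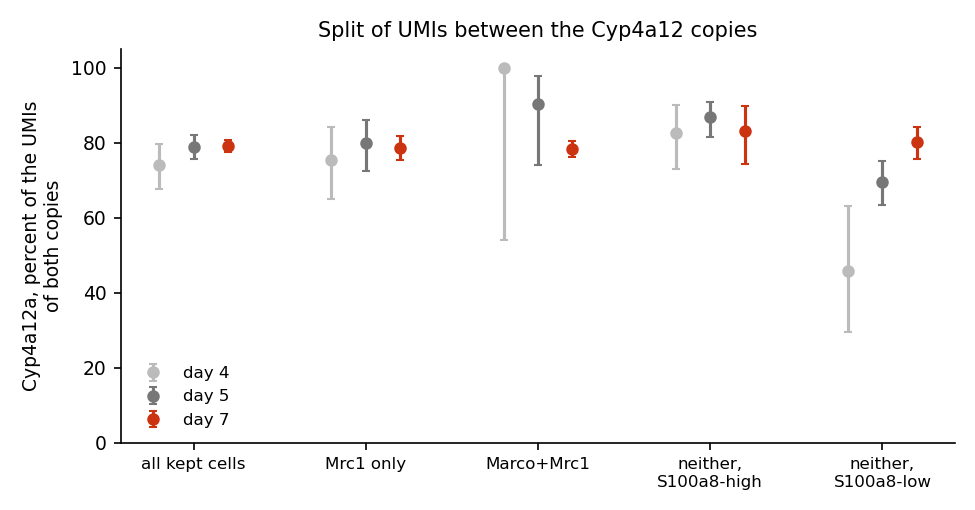
Percent of the UMIs of both copies that were assigned to Cyp4a12a, in all kept heme cells and by status group on days 4, 5 and 7, with exact Clopper-Pearson 95% intervals. S100a8-low cells without Marco or Mrc1 run from 45.9% on day 4 to 80.2% on day 7, while S100a8-high cells stay between 82.8% and 86.8%.

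The members were next compared with each other inside the Marco+Mrc1 cells of heme day 7, where a carrier is a cell with at least 1 UMI of the gene. Cyp4a12a had 457 carriers of 693 cells, Cyp4a12b 200 and Ednrb 169, with median depths of 17937, 18348 and 18469 UMIs against 16275, 17010 and 17006 in their non-carriers. Cyp4a12b was at 32.8 CPM in carriers of Cyp4a12a and 10.9 CPM in non-carriers (ratio 3.01, 2.16 to 4.29). In the reverse view, Cyp4a12a was at 129 CPM in carriers of Cyp4a12b and 79.1 CPM in non-carriers (1.44 to 1.83 times). Ednrb was at 21 CPM in carriers of Cyp4a12b and 48.9 CPM in non-carriers (ratio 0.43, 0.33 to 0.55), and at 39.2 and 43.1 CPM in carriers and non-carriers of Cyp4a12a. By CPM, then, each copy's UMIs lay more in cells that held the other copy, and Ednrb UMIs lay more in cells without Cyp4a12b. Reads that match both copies bear on the first of these as well, and their part in it was not tested.

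At 5000 UMIs per cell the shares pointed the same way with wider intervals. Cyp4a12b was detected in 15.3% (11.0% to 20.5%) of the thinned Cyp4a12a carriers and 8.97% (6.48% to 12.0%) of the rest. Ednrb was detected in 6.49% (2.14% to 14.5%) of the Cyp4a12b carriers and 12.9% (10.4% to 15.9%) of the rest, and in 9.09% (5.79% to 13.4%) and 13.9% (10.8% to 17.5%) by Cyp4a12a. These intervals overlap in each case, which alone does not show a lack of difference. The wider group of thinned day 7 cells with Marco, Mrc1 or both was also counted. There Cyp4a12b was in 15.6% (12.1% to 19.7%) of Cyp4a12a carriers and 8.44% (6.5% to 10.7%) of the rest. Cyp4a12a was in 23.1% (15.4% to 32.4%) of Ednrb carriers and 35.5% (32.5% to 38.6%) of the rest. The intervals were apart for both, while those of Ednrb by either copy overlapped. In all thinned day 7 cells only the first of these was apart. Reads that match both copies bear on the Cyp4a12b shares. On day 4 none of the 16 thinned cells with Ednrb held either copy. Cyp4a12a was detected in only 2.01% and Cyp4a12b in 0.735% of the 2040 cells without Ednrb. With 16 cells, little is to be read from none holding both.

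The genes furthest apart between carriers and non-carriers were then named for each member, among 9469 genes with at least 50 UMIs in these cells. Ccl7, a monocyte-attracting chemokine, was 5.12 times higher in Ednrb carriers and detected in 26.0% of them against 6.9% of the rest. By the same measure it was lower in carriers of Cyp4a12a (ratio 0.43) and Cyp4a12b (0.29). Complement gene C1qb (ratio 3.37; 8.3% against 2.7% of cells) and Mamdc2 (3.23; 14.8% against 6.1%) were also higher in Ednrb carriers.

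In the other direction, Car4, a membrane carbonic anhydrase known from alveolar macrophages and capillary endothelium, had a ratio of 0.08 in Ednrb carriers, with detection in 4.1% against 14.3% of cells. It was 4.26 and 3.25 times higher in carriers of Cyp4a12a and Cyp4a12b. Ear2, an eosinophil-associated ribonuclease of myeloid cells, had ratios of 0.16 for Ednrb, with detection in 7.7% against 23.5% of cells, and 3.42 and 2.53 for the P450 genes. Thbs1, the matrix protein thrombospondin 1, had 0.19, 1.51 and 1.80, and Cstdc4, a stefin of the cystatin family, 0.20, 1.47 and 2.86 in the order Ednrb, Cyp4a12a and Cyp4a12b. By detection the P450 genes did not all differ so. Thbs1 was in 46.2% of Cyp4a12a carriers and 45.8% of the rest, and in 47.0% and 45.6% by Cyp4a12b. Ear2 was in 22.8% and 13.6% by Cyp4a12a but 21.5% and 18.9% by Cyp4a12b. Car4 was in 14.4% and 6.78%, and in 16.5% and 9.94%. Cells are not replicates, and a few cells set some of these ratios. Mt3, a metallothionein, had ratios of 4.01, 0.22 and 5.04 for Cyp4a12a, Cyp4a12b and Ednrb, but 5 cells held 78.9% of its UMIs and 21.9% and 21.6% of Cyp4a12a carriers and non-carriers had any. The top 5 cells held 64.8% of the UMIs of Cstdc4, 58.9% of Cxcl5 and 82.0% of Asgr2, against 34.7% of Car4, 28.0% of Ear2, 28.1% of Ccl7 and 15.4% of Thbs1.

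**Figure D5:**
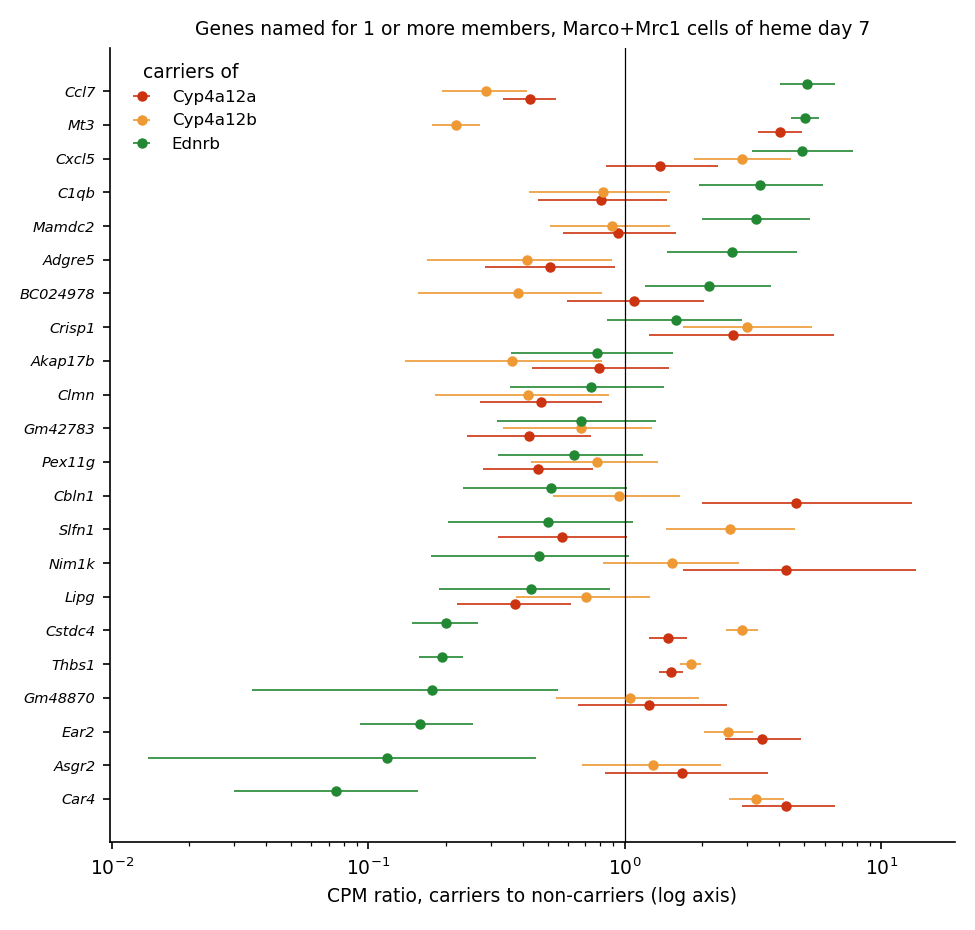
Ratio on a log axis of the CPM in carriers to that in non-carriers of Cyp4a12a (red), Cyp4a12b (orange) and Ednrb (green) among the 693 Marco+Mrc1 cells of heme day 7, for each gene named for 1 or more members. Bars are 95% intervals for counting error only. Ccl7 is at 5.12 for Ednrb and 0.43 and 0.29 for the P450 genes, and Car4 at 0.08 against 4.26 and 3.25.

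The heme-associated genes Slc40a1, Marco, Hmox1 and Spic differed less between carriers and non-carriers of Ednrb. Slc40a1 was at 826 CPM in carriers and 488 CPM in non-carriers (ratio 1.69), Marco had a ratio of 1.24, Hmox1 1.21 and Spic 1.03. For Cyp4a12a and Cyp4a12b, Slc40a1 was lower in carriers, with ratios of 0.90 (0.85 to 0.94) and 0.88 (0.84 to 0.93). Marco, Hmox1 and Spic had 0.91, 0.97 and 0.98 for Cyp4a12a and 0.99, 0.94 and 1.00 for Cyp4a12b.

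In the endothelin system, Ednrb was the receptor gene counted above traces. Of 10 genes, 4 had enough UMIs on day 7, of which Ednrb and Kel, a blood group protein that cleaves big endothelin 3, were at least 2-fold higher and Edn1, the endothelin 1 precursor, at least 2-fold lower. Kel was at 1.11 CPM in heme and 0.289 CPM in control, and Edn1 at 0.816 and 1.79 CPM. Ece1, the main endothelin-converting enzyme, was at 15.8 and 16.9 CPM. The endothelin A receptor Ednra had 1 UMI in each day 7 culture, and Edn2, Ecel1 and Mme had none in either. Over all genes, 14.9% were at least 2-fold higher and 7.67% lower. The median log2 ratio of the measured endothelin genes was 0.93, or -0.09 without Ednrb, beside 0.28 over all genes.

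Around the P450 genes, the enzymes that make and use arachidonic acid were mixed. Of 29 eicosanoid genes, 23 had enough UMIs on day 7, 7 were at least 2-fold higher and 3 lower, with a median log2 ratio of 0.40. Over all genes the shares were 14.9% higher and 7.67% lower. Hpgds, which makes prostaglandin D2, had a log2 ratio of 2.64, Pla2g4a, the cytosolic phospholipase that releases arachidonic acid, 1.79 and the prostaglandin receptor gene Ptger2 1.51. The leukotriene receptor gene Cysltr1 was at -2.28 (12.4 CPM in heme and 60.1 CPM in control).

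The electron donors and heme supply of P450 enzymes held 10 measured genes, of which 4 were at least 2-fold higher and none lower (median 0.49). With 10 genes and 7.67% of all genes lower, little is to be read from none being lower. Por, the reductase that passes electrons to all microsomal P450 enzymes, was at 111 and 30.1 CPM (log2 ratio 1.88), Cyb5a, their cytochrome b5, at 938 and 263 CPM (1.84) and Fech, which inserts iron into heme, at 39.5 and 16.4 CPM (1.27). Hmox1, which breaks heme down, had the largest ratio of the list (5.91).

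Of 26 genes of PPAR signaling and fatty acid use, to which Cyp4a genes of the liver belong, 23 had enough UMIs, 8 were at least 2-fold higher and none lower (median 0.66). The lipoprotein lipase inhibitor Angptl4 had a log2 ratio of 2.81, the acyl-CoA thioesterase Acot1 2.80, the carnitine transferase Cpt1a 1.90 and Rxra, the partner receptor of PPARs, 1.79. The 22 genes of the NRF2 and oxidant response were all measured, and 17 were at least 2-fold higher with none lower (median 1.81), led by Gsta3 (6.58), Me1 (6.17), Gclm, a subunit of the enzyme that starts glutathione synthesis (3.93), and the quinone reductase Nqo1 (3.63). Of 12 heme and iron handling genes, 9 of the 11 measured were at least 2-fold higher and none lower (median 1.61), led by Spic (9.49), Slc40a1 (7.08), Hmox1 (5.91) and the lysosomal heme transporter Slc48a1 (2.36). All these medians stand beside 0.28 over all genes, and the counts beside 14.9% of all genes at least 2-fold higher and 7.67% lower. The lists were chosen with results of these data known, so their counts carry no test.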

How the data were processed

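The deposited files held counts of UMIs per gene and barcode, which the authors made with Cell Ranger (4.0.0 in the submitters' notes, 5.0.0 in the matrix header) on build GRCm38.p6, and a hashtag call per barcode. Singlet barcodes with 500 to 5000 genes, under 15% mitochondrial and under 30% ribosomal protein UMIs were kept, the study's limits, with its percent limits read as upper limits. Hashtag names gave the day; those of the heme library spell it Herme. The exposure times listed by the submitters do not all follow from the harvest days, so days are used. Counts were summed per culture and scaled to CPM (Python 3.11.15, numpy 2.4.6, scipy 1.17.1, pandas 2.3.3), with exact Poisson, ratio and Clopper-Pearson 95% intervals. With 1 library per group there was no test. Barcodes called Doublet or Negative were left out. Scripts were tested on simulated data. Alternatives used edgeR 4.0.16 and DESeq2 1.42.0 for library scaling only. Transcripts were aligned with Biopython 1.88. The members and gene lists were chosen with earlier results of these data known. Named genes were the members, at most 4 per list by absolute log2 ratio on day 7 among genes with 10 CPM in a culture, the 5 most like each member, the 5 highest and 5 lowest between carriers and non-carriers, and the status genes; Kel, Edn1, other endothelin and Cyp4 genes and neutrophil markers outside it were named after their values were seen.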

Additional observations from a re-analysis of the deposited data

Results flagged for a closer look

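The members were also counted in barcodes that the comparisons above leave out. In the 1996 heme barcodes called Doublet by hashtag, Cyp4a12a was at 27.3 CPM, Cyp4a12b at 7.42 CPM and Ednrb at 6.85 CPM, against 0.0930, 0.0310 and 0.124 CPM in the 1259 control barcodes called Doublet. In the 1218 heme barcodes without a hashtag call Cyp4a12a was at 4.33 CPM, from 33 UMIs, against 0.338 CPM, from 1 UMI, in the 652 such control barcodes. In the same heme barcodes Cyp4a12b was at 1.18 CPM, from 9 UMIs, and Ednrb at 0.655 CPM, from 5 UMIs, against 0 control UMIs, where 3 counts would be 1.01 CPM, so Ednrb was not above the control floor there. Apart from Ednrb in the barcodes without a call, these are levels in heme barcodes above the control level in data that enter no comparison.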

How the results depend on the processing

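No paired analysis was possible because each group is 1 library and no sample has a replicate. Of 178 values of 49 results under other settings, 128 moved by less than the counting interval or stayed within 1.5 times the count, 50 moved further. The heme to control ratios ranged over the alternatives from 26.3 to 77.1, 187 to 401 and 465 to 904 for Cyp4a12a on days 4, 5 and 7, from 12.5 to 29.4, 39.7 to 114 and 195 to 283 for Cyp4a12b and from 21.9 to 60.7, 31.3 to 95.5 and 257 to 414 for Ednrb, so the heme level stayed above the control level under each. Where the control was at 0, or not above 0 after a subtraction, a floor of 3 counts stood in for it in these ratios. With at least 500 genes and no upper limit, and with all singlets, Cyp4a12a was at 9.71 and 9.70 CPM on day 4 and 34.6 and 34.5 CPM on day 5, Cyp4a12b at 2.76 and 2.77 on day 4 and 9.85 and 9.83 on day 5, Ednrb at 5.73 and 5.72 on day 4 and 19.8 and 19.7 on day 7, and at 33.0 and 33.0 in Marco+Mrc1 cells. Ednrb on day 5 was then at 5.49 and 5.48, below its day 4 level. A mean of per-cell CPM gave 21.6 and 71.3 for Cyp4a12a on days 5 and 7, 4.58 and 18.5 for Cyp4a12b, 2.05 and 18.6 for Ednrb on days 4 and 7, and ratios of 13.9 and 39.7 for Cyp4a12b on days 4 and 5. DESeq2 size factors gave 72.7 CPM for Cyp4a12a on day 7, and subtraction of day 3 a ratio of 12.5 for Cyp4a12b on day 4. Thinned to 2000 or 10000 UMIs, the day 7 shares were 12.5% and 45.6% for Cyp4a12a, 3.65% and 15.1% for Cyp4a12b and 2.59% and 12.8% for Ednrb, as shares depend on depth by construction. With S100a8-high cells set at 30000 CPM, Cyp4a12a there was at 14.6 CPM. Against day 7 alone, the day 0 level was 2.47% for Cyp4a12a and 3.61% for Ednrb. With a pseudocount of 10, 2 of the 5 most similar genes were shared for each member. With at least 100 UMIs, 1540, 534, 676 and 665 genes were at least 2-fold higher on days 0, 3, 4 and 5 (2511, 1003, 1206 and 1161 at 20 UMIs), and 121, 26, 289 and 648 at least 2-fold lower on days 0, 3, 5 and 7 (212, 68, 470 and 987), with fewer genes counted by construction. With at least 200 UMIs, chosen after seeing the data, 3 of the 5 genes highest and 1 of the 5 lowest in carriers were shared for Cyp4a12a, 2 and 2 for Cyp4a12b and 2 and 3 for Ednrb. Apart from these constructions the cause of each move was not tested. Member levels under 1 CPM rest on fewer than 25 UMIs, and a spread between cultures cannot be had from 1 library per group.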
